A study of Caenorhabditis elegans with 4 samples.

Results

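The *fbxa* genes code for the F-box A proteins of *Caenorhabditis elegans*, and their expression was followed here in whole worms exposed to a cyclic dipeptide. Members were all rows of the deposited count table whose locus tag carries a symbol starting with *fbxa-* in RefSeq's gene table for assembly WBcel235. This gave 222 of 21895 rows, 170 annotated as protein-coding and 52 as pseudogenes. The worms were Bristol N2, the laboratory wild type, and its genotype is given as WT in both groups. In the exposed group, the worms of 2 libraries were shaken for 24 h in M9 buffer with Cyclo(Pro-Tyr), a ring of proline and tyrosine, at 0.25 mg/mL. In the control group, the worms of 2 libraries were shaken for the same 24 h with DMSO, the solvent. The stage is given only as embryos or first-stage larvae, and the temperature as 19 °C in one place and 20 °C in another. Nothing says whether the 2 libraries of a group came from separate cultures, so p-values measure the spread between these libraries, which may be technical.

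An F-box protein is the part of an SCF ubiquitin ligase that chooses the substrate. Its F-box binds a Skp1-related protein (SKR in worms), which hangs from a cullin scaffold. The RING protein at the other end brings the ubiquitin-conjugating enzyme. Nematodes have expanded this class of genes far beyond the number found in mammals, mostly as tandem copies, and the *fbxa*, *fbxb* and *fbxc* families differ in the domain that follows the F-box. Most *fbxa* genes have no described role. In *C. elegans*, *fbxa-75* and *fbxa-158* serve as adaptors of a CUL-6 ligase that is switched on by intracellular pathogens.

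The shallowest library held 40240674 counts and the deepest 52987317. CPM here are a gene's counts scaled to a common library size by the TMM method, so that levels compare across libraries, and 1 count was worth 0.0188 to 0.0256 CPM. Defining markers of intestine, muscle, neurons, epidermis and germline were all detected, and the germline markers together came to 90.7 and 96.6 CPM in Cyclo(Pro-Tyr) against 96.1 and 96.0 CPM in DMSO. Intestinal markers summed to 5260 and 6410 CPM in Cyclo(Pro-Tyr) against 6852 and 5701 CPM in DMSO. Most of these sums was *asp-1*, at 4850 and 5897 CPM in Cyclo(Pro-Tyr) against 6446 and 5330 CPM in DMSO. It was the only intestinal marker with a lower mean, and 3 of the 4 were higher. Muscle markers summed to 10152 and 9911 CPM in Cyclo(Pro-Tyr) against 7603 and 9138 CPM in DMSO. Epidermal markers summed to 103 and 64.3 CPM in Cyclo(Pro-Tyr) against 128 and 145 CPM in DMSO, with 2 of the 4 markers higher. Among the epidermal markers *dpy-7*, which is also on the moulting list, measured 52.3 and 19.4 CPM in Cyclo(Pro-Tyr) against 83.3 and 103 CPM in DMSO. Sperm markers summed to 5.52 and 4.92 CPM in Cyclo(Pro-Tyr) against 6.56 and 6.47 CPM in DMSO, with 2 of 4 too low to be tested. The Cyclo(Pro-Tyr) libraries stood further apart than the DMSO libraries did. Over all tested genes the SD of the log2 CPM difference was 0.42 between the Cyclo(Pro-Tyr) replicates and 0.35 between the DMSO replicates. Over the tested *fbxa* genes it was 0.33 and 0.36.

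Every *fbxa* row had at least 1 count in some library, but most were weakly expressed. The family as a whole took 0.163% and 0.179% of the counts in Cyclo(Pro-Tyr) replicates 1 and 2, against 0.154% and 0.149% in DMSO replicates 1 and 2. Its summed level was 1618 and 1844 CPM in Cyclo(Pro-Tyr) and 1535 and 1463 CPM in DMSO, so both exposed libraries lay above both controls. The mean level over the 4 libraries had a median of 3.90 CPM over the 222 genes and reached 75.9 CPM. Of these genes, 168 had at least 1 CPM, 51 at least 10 CPM and 0 at least 100 CPM. Per kilobase of annotated exon, the median was 3.16 CPM for the 222 genes. It was 3.90 CPM for the 205 of them that were tested, against 8.96 CPM for all tested genes. The 51 genes that reached 10 CPM were 42 of the 170 protein-coding members and 9 of the 52 pseudogenes.

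A minimum level set by edgeR's default filter left 205 of the 222 genes to be tested. The 17 others, 10 protein-coding and 7 pseudogenes, held 2 to 34 counts over the 4 libraries together, and 7 of them had a library at 0. Of the 205 genes tested, 200 were above its minimum of 0.214 CPM in all 4 libraries, and 5 passed with some library below it.

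The family leaned upward in Cyclo(Pro-Tyr) by a small amount, and few of its genes passed the test on their own. Of the 205 tested genes, 69.3% were higher and 63 genes were lower, and the median log2 fold change of Cyclo(Pro-Tyr) over DMSO was 0.21, beside -0.0032 over all 19439 tested genes. With no filter, 147 of the 222 *fbxa* genes were higher and the median was 0.17. In edgeR's quasi-likelihood test, with p adjusted over all tested genes and a threshold of 0.05, 1 *fbxa* gene rose and 1 fell. That is 2 of 205, or 0.976%, where 2.05% of all tested genes were called. At an adjusted p below 0.1 the count was 27 of 205 (23 higher, 4 lower), or 13.2%, close to the 13.7% of all tested genes. Of all 19439 tested genes, 1181 were higher and 1479 lower at that threshold, so the split by direction differed.

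The lean shows in the direction of the values rather than in the number of calls. Both Cyclo(Pro-Tyr) libraries lay above both DMSO libraries for 93 *fbxa* genes (45.4%), where this held for 29.6% of all tested genes. Both lay below for 35 *fbxa* genes (17.1%), where this held for 30.8%. At an unadjusted p under 0.05 by edgeR, 41 *fbxa* genes were higher (20.0%, against 13.0% of all tested genes) and 8 were lower (3.90%, against 14.3%). The middle of the distribution ran from -0.10 to 0.39 (quartiles, log2 scale). A difference of at least 2-fold was seen upward in 5 genes and downward in 2.

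**Figure D1:**
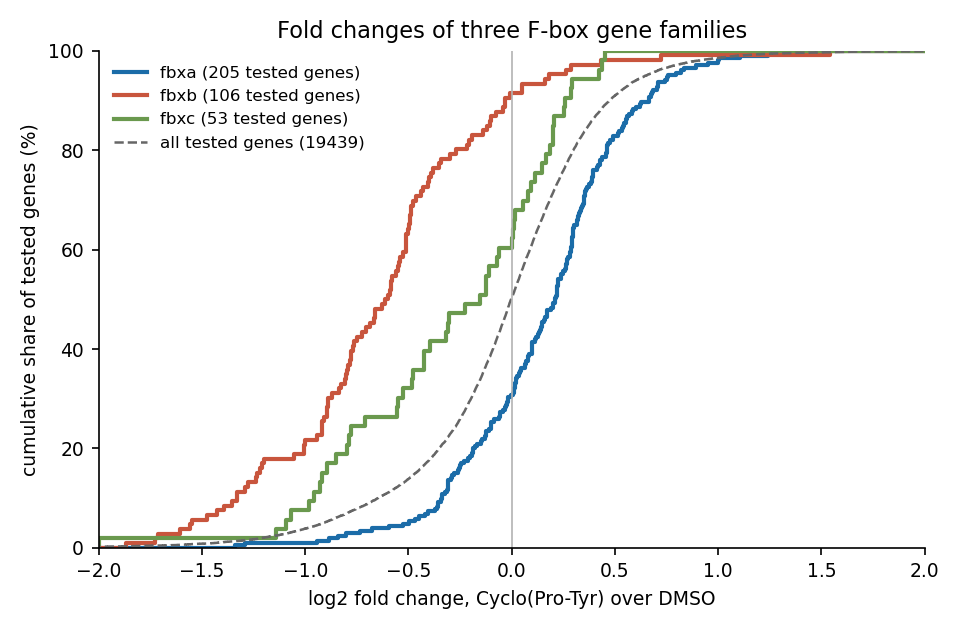
Cumulative share of tested genes (y axis, %) against log2 fold change, Cyclo(Pro-Tyr) over DMSO (x axis), for the *fbxa*, *fbxb* and *fbxc* families and for all tested genes (dashed). The *fbxa* curve lies to the right of the dashed curve, with a median of 0.21, and the *fbxb* curve to its left, with a median of -0.61.

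The lean was larger in Cyclo(Pro-Tyr) replicate 2 than in replicate 1. On log2(CPM + 0.5), relative to the mean of both DMSO libraries, the median *fbxa* gene stood at 0.08 in Cyclo(Pro-Tyr) replicate 1 and at 0.25 in replicate 2. The DMSO libraries themselves stood at 0.01 and -0.01, mirror values because their own mean is the base. Cyclo(Pro-Tyr) replicate 2 was the highest of the 4 libraries for 116 of the 205 genes (56.6%), against 33.1% of all tested genes. Without that library the median log2 fold change of the family was 0.09. Leaving out Cyclo(Pro-Tyr) replicate 1 instead gave 0.27. Without DMSO replicate 1 or 2 it was 0.22 or 0.16.

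**Figure D2:**
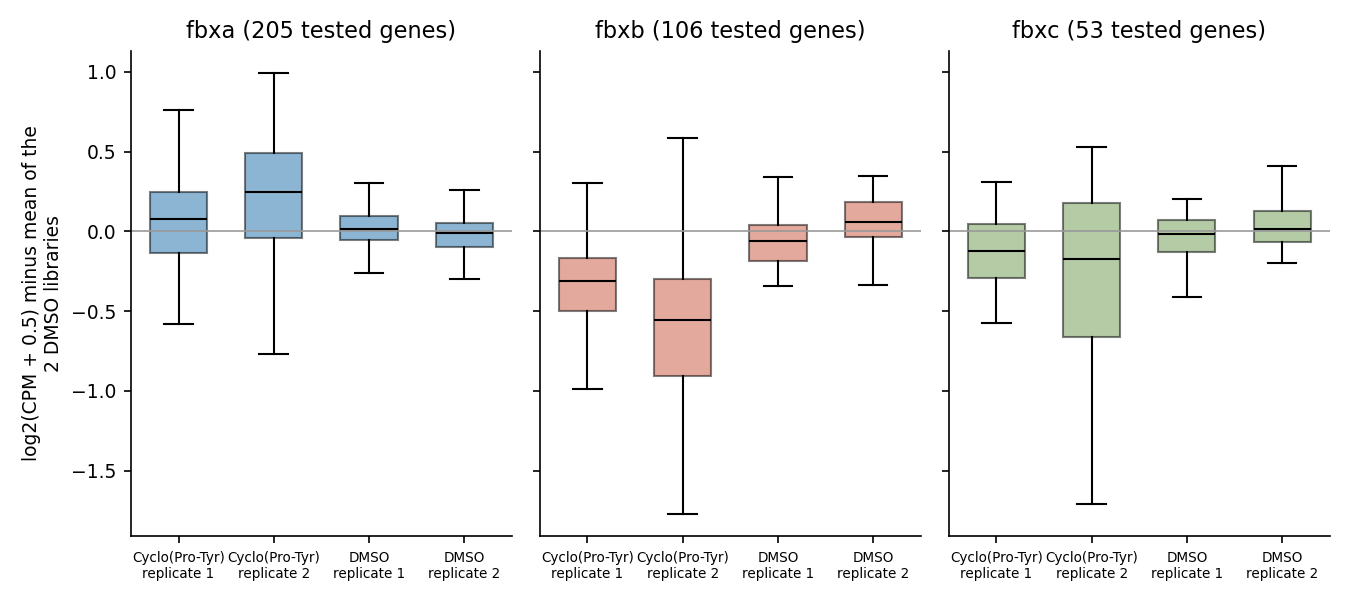
Levels per library of the tested genes of each family, as log2(CPM + 0.5) minus the mean of the 2 DMSO libraries (y axis), in Cyclo(Pro-Tyr) replicates 1 and 2 and DMSO replicates 1 and 2 (x axis). Boxes give the quartiles with the median as a line, and whiskers reach 1.5 times the box height or the last value. The *fbxa* medians were 0.08 and 0.25 in the Cyclo(Pro-Tyr) libraries, and the *fbxb* medians -0.31 and -0.56.

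Some other sums of CPM also stood furthest from the DMSO libraries in Cyclo(Pro-Tyr) replicate 2. A list of 16 moulting and cuticle genes, which swing with larval stage, summed to 952 and 532 CPM in Cyclo(Pro-Tyr) replicates 1 and 2, against 1137 and 1499 CPM in DMSO replicates 1 and 2. Of that list, 15 of 16 genes were lower, and the median log2 fold change was -0.99. By edgeR 0 were called at an adjusted p below 0.05. At an unadjusted p under 0.05, 10 were lower, where this held for 14.3% of all tested genes. The 4 neuronal markers (*rab-3*, *snt-1*, *egl-21* and *unc-104*) summed to 1458 and 1731 CPM in Cyclo(Pro-Tyr), against 1310 and 1227 CPM in DMSO. All 4 were higher in both exposed libraries, as were 29.6% of all tested genes. By edgeR 0 of them were called, and 1 was higher at an unadjusted p under 0.05 (13.0% of all tested genes). From Cyclo(Pro-Tyr) replicate 1 to replicate 2, *egl-21* went from 1017 to 1277 CPM and *unc-104* from 194 to 211 CPM. Over the same libraries *rab-3* went from 112 to 111 CPM and *snt-1* from 135 to 132 CPM. In whole worms, fewer cells of a type and less RNA per cell cannot be told apart, and the part of stage or tissue make-up in the *fbxa* values was not tested.

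The called decrease was that of *fbxa-215* (CELE_Y45F10C.3), on chromosome IV. It measured 7.49 and 7.40 CPM in the Cyclo(Pro-Tyr) libraries, against 12.5 and 13.4 CPM in the DMSO libraries. The groups were well separated, and replicates within each were close. Its means were 7.45 ± 0.0626 CPM in Cyclo(Pro-Tyr) and 13.0 ± 0.632 CPM in DMSO (SD, n = 2 each). On the log2 scale it fell by 0.80 ± 0.13 (standard error; edgeR adjusted p 0.0416). No other annotated gene overlaps its exons, piRNA genes left aside.

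The called increase was that of *fbxa-27* (CELE_Y82E9BL.17), on chromosome III. It measured 15.2 and 15.8 CPM in Cyclo(Pro-Tyr), against 9.79 and 9.26 CPM in DMSO. Here too the replicates of each group lay close together. Its means were 15.5 ± 0.390 CPM in Cyclo(Pro-Tyr) and 9.52 ± 0.369 CPM in DMSO (SD, n = 2 each). On the log2 scale it rose by 0.70 ± 0.13 (standard error; edgeR adjusted p 0.0458). Its exons overlap Y82E9BL.6 on the opposite strand, and that gene had at most 0.300 CPM in any library.

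Both calls were lost without either DMSO library, where the number of calls among all tested genes was 0 without replicate 1 and 4 without replicate 2. Without DMSO replicate 1 the edgeR adjusted p was 0.219 for both genes, and without DMSO replicate 2 it was 0.351 for *fbxa-215* and 0.353 for *fbxa-27*, with fold changes of the same direction. Both were also lost with the filter of 5 CPM in 2 libraries, where 0 of all tested genes were called. Both were lost too with the replicate number as a block (edgeR adjusted p 0.0634 for *fbxa-215* and 0.0718 for *fbxa-27*). That of *fbxa-27* was lost with scaling by total counts. Over all alternatives the adjusted p of *fbxa-215* ran from 0.00106 to 0.351 and that of *fbxa-27* from 0.00142 to 0.353.

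The genes next in line on the higher side were separated between groups but missed the threshold. The pseudogene *fbxa-173* measured 5.54 and 5.58 CPM in Cyclo(Pro-Tyr), against 3.19 and 2.33 CPM in DMSO. Its log2 fold change was 1.0 ± 0.20 (standard error; edgeR adjusted p 0.0530). The gene *fbxa-6* measured 24.2 and 31.5 CPM in Cyclo(Pro-Tyr), against 17.3 and 16.8 CPM in DMSO. The exposed libraries differed more from each other than the controls did.

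The pseudogene *fbxa-162* measured 13.6 and 14.9 CPM in Cyclo(Pro-Tyr), against 9.22 and 6.70 CPM in DMSO. The pseudogene *fbxa-87* measured 29.3 and 40.6 CPM in Cyclo(Pro-Tyr), against 21.3 and 20.2 CPM in DMSO. The gene *fbxa-127* measured 6.33 and 7.30 CPM in Cyclo(Pro-Tyr), against 3.72 and 4.14 CPM in DMSO. In each of these the lowest exposed library stood above the highest control. Log2 fold changes of *fbxa-6*, *fbxa-162*, *fbxa-87* and *fbxa-127* were 0.71, 0.83, 0.75 and 0.79, with edgeR adjusted p from 0.0537 to 0.0559.

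On the lower side, *fbxa-137* measured 4.06 and 2.92 CPM in Cyclo(Pro-Tyr), against 6.36 and 6.24 CPM in DMSO. The gene *fbxa-83* measured 8.07 and 7.22 CPM in Cyclo(Pro-Tyr), against 10.9 and 12.2 CPM in DMSO. The gene *fbxa-103* measured 0.807 and 0.948 CPM in Cyclo(Pro-Tyr), against 1.5 and 1.87 CPM in DMSO. The libraries of the groups did not overlap in any of them. Their log2 fold changes were -0.84, -0.59 and -0.94, and edgeR gave adjusted p-values of 0.0628, 0.0664 and 0.0868. The gene *fbxa-210* measured 9.29 and 10.5 CPM in Cyclo(Pro-Tyr), against 12.8 and 12.2 CPM in DMSO, or -0.34 on the log2 scale (edgeR adjusted p 0.158).

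Among the most abundant members, 4 of 5 were higher and none passed the threshold by edgeR. The most abundant, *fbxa-24* (45.5 CPM per kilobase), measured 77.9 and 99.4 CPM in Cyclo(Pro-Tyr), against 70.6 and 55.5 CPM in DMSO. Its replicates were wide apart in both groups, and its log2 fold change was 0.49 ± 0.16 (standard error; edgeR adjusted p 0.107). The gene *fbxa-152* (41.9 CPM per kilobase) measured 52.0 and 65.8 CPM in Cyclo(Pro-Tyr), against 47.6 and 42.1 CPM in DMSO. The gene *fbxa-69* (24.5 CPM per kilobase) measured 42.1 and 56.6 CPM in Cyclo(Pro-Tyr), against 31.6 and 29.9 CPM in DMSO. In both, replicate 2 of Cyclo(Pro-Tyr) was the highest library.

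The gene *fbxa-67* (23.0 CPM per kilobase) measured 45.2 and 54.4 CPM in Cyclo(Pro-Tyr), against 44.6 and 36.2 CPM in DMSO, and its exons overlap the pseudogene *fbxa-23* on the same strand. The gene *fbxa-37* (43.4 CPM per kilobase) went the other way, with 40.2 and 39.1 CPM in Cyclo(Pro-Tyr), against 48.5 and 48.7 CPM in DMSO. Log2 fold changes of *fbxa-152*, *fbxa-69*, *fbxa-67* and *fbxa-37* were 0.39, 0.68, 0.30 and -0.30, and their edgeR adjusted p 0.125, 0.0574, 0.217 and 0.116.

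**Figure D3:**
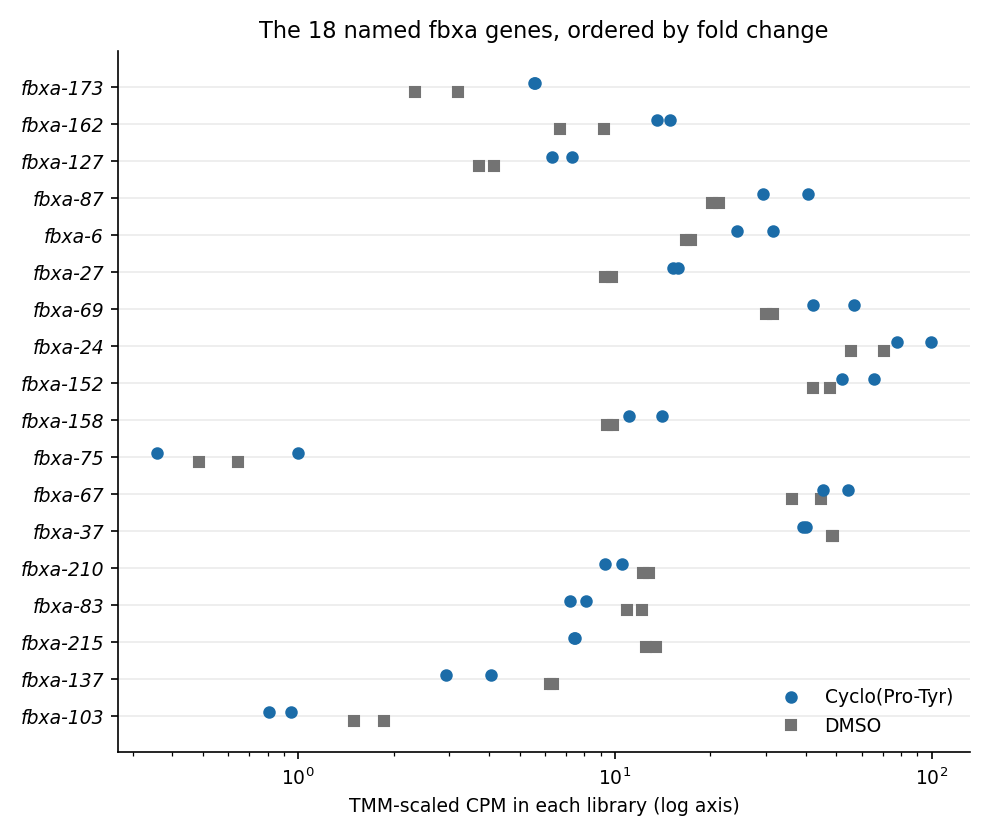
TMM-scaled CPM in each library (x axis, log scale) of the 18 *fbxa* genes described one by one, ordered by fold change with the highest at the top. Circles are the 2 Cyclo(Pro-Tyr) libraries and squares the 2 DMSO libraries. The circles of *fbxa-75* lie on either side of its squares, and in the other 17 genes the groups do not overlap.

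The share of higher genes was largest among the better expressed members. Of the 51 genes with a mean of 10 to 100 CPM, 41 were higher (80.4%), with a median log2 fold change of 0.29. For all tested genes in the same range the share was 49.3% and the median -0.0052. Of the 117 *fbxa* genes with 1 to 10 CPM, 78 were higher (66.7%) with a median of 0.16, against 47.5% and -0.03 for all genes in that range. Below 1 CPM, 23 of 37 tested *fbxa* genes were higher (62.2%) with a median of 0.26, against 47.0% and -0.05 for all tested genes in that range. The median was thus nearly as high in the weakest genes as in the best expressed ones, and lowest in between. All 7 genes past 2-fold averaged under 10 CPM. Chosen after their values were seen, *fbxa-45* measured 0.507 and 0.666 CPM in Cyclo(Pro-Tyr), against 0.233 and 0.185 CPM in DMSO, and *fbxa-100* measured 1.60 and 1.59 CPM in Cyclo(Pro-Tyr), against 0.739 CPM in each DMSO library. Their edgeR adjusted p was 0.0908 and 0.0639.

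**Figure D4:**
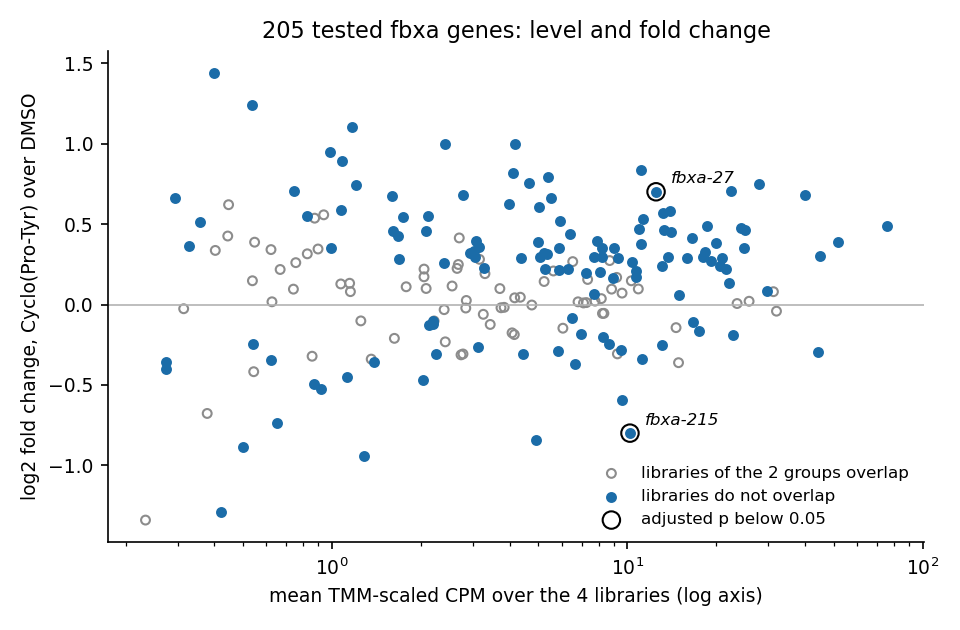
Log2 fold change, Cyclo(Pro-Tyr) over DMSO (y axis), against mean CPM over the 4 libraries (x axis, log scale) for the 205 tested *fbxa* genes. Filled points are genes whose libraries do not overlap between groups, open points those whose libraries do, and black circles mark the called genes *fbxa-215* and *fbxa-27*. Between 10 and 100 CPM, 41 of 51 points lie above 0.

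Protein-coding members and pseudogenes leaned the same way. Of 160 tested protein-coding *fbxa* genes, 113 were higher, at a median of 0.22 on the log2 scale. Of 45 tested *fbxa* pseudogenes, 29 were higher, at a median of 0.13. All tested pseudogenes of the genome had a median of 0.03. With piRNA genes left aside, exons of 32 *fbxa* genes overlap another annotated gene, in 20 cases on the opposite strand. Since it is not given whether counting used strand, the counts of those 20 are uncertain. In 15 cases, some of them among those 20, a gene overlaps on the same strand. Strand cannot separate such reads, so those counts are uncertain too. Among the 30 tested genes with an overlap 26 were higher, and among the 175 without one 116 were higher, with medians of 0.32 and 0.17. Reads from tandem copies of like sequence may also have been shared out between copies, which was not tested.

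Most members sit next to one another. When genes with at most 3 other rows between them were joined, 161 of the 222 genes fell into 38 runs and 61 stood alone. Of 150 tested genes in runs, 110 were higher with a median of 0.23. Of the 55 tested genes outside runs, 32 were higher with a median of 0.06. By chromosome, the tested members were mostly higher on III (55 of 71), II (14 of 18), X (12 of 16) and V (53 of 82), and split on I (6 of 13 higher) and IV (2 of 5 higher). Among all tested genes the share that was higher was 45.0% on III, 45.8% on II, 55.3% on X, 55.7% on V, 42.6% on I and 50.3% on IV.

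The longest run, 33 genes on chromosome III from *fbxa-21* to *fbxa-25*, held members of both directions, 23 higher and 10 lower, with a median of 0.21. It holds *fbxa-27* and *fbxa-37*, whose fold changes are opposite, and also *fbxa-75*. The 4 genes at its end, singled out after their values were seen, were *fbxa-5*, *fbxa-26*, *fbxa-27* and *fbxa-25*, with log2 fold changes of 0.68, 0.67, 0.70 and 0.54. Of these *fbxa-27* alone was called, and the libraries of *fbxa-25* overlapped between groups. The 8 tested genes of other families inside this run had a median of -0.13, with 2 higher.

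Some shorter runs were more uniform, and others were mixed. In the run of 7 genes on chromosome V from *fbxa-175* to *fbxa-133*, all 6 tested genes were higher without overlap between groups (29.6% of all tested genes), at log2 fold changes of 0.39 to 1.0, and *fbxa-173* is among them. In the run of 9 genes on chromosome II from *fbxa-161* to *fbxa-160*, all 7 tested genes were higher, 6 without overlap, at 0.21 to 0.83. It holds *fbxa-162* and *fbxa-158*. In the run of 12 genes on chromosome III from *fbxa-55* to *fbxa-51*, 10 of 11 tested genes were higher with a median of 0.40, and it holds *fbxa-67*. None of these 3 runs had a gene past the threshold by edgeR. At an unadjusted p under 0.05 by edgeR, 3 genes in the first, 3 in the second and 4 in the third were higher. The share of all tested genes was 13.0%. Few genes of other families inside these runs were tested. In the first, 2 of 3 were higher, without overlap between groups and at an unadjusted p under 0.05 by edgeR. In the second, 1 was tested and was lower, and in the third 2 of 2 were higher. In other runs of 5 or more genes, 8 of 9 were higher from *fbxa-7* to *fbxa-39* and 5 of 6 from *fbxa-185* to *fbxa-134*. From *fbxa-8* to *fbxa-47*, 4 of 5 were higher, and from *fbxa-191* to *fbxa-108*, 3 of 5. The run from *fbxa-110* to *fbxa-112* had 2 tested genes, 1 higher and 1 lower.

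**Figure D5:**
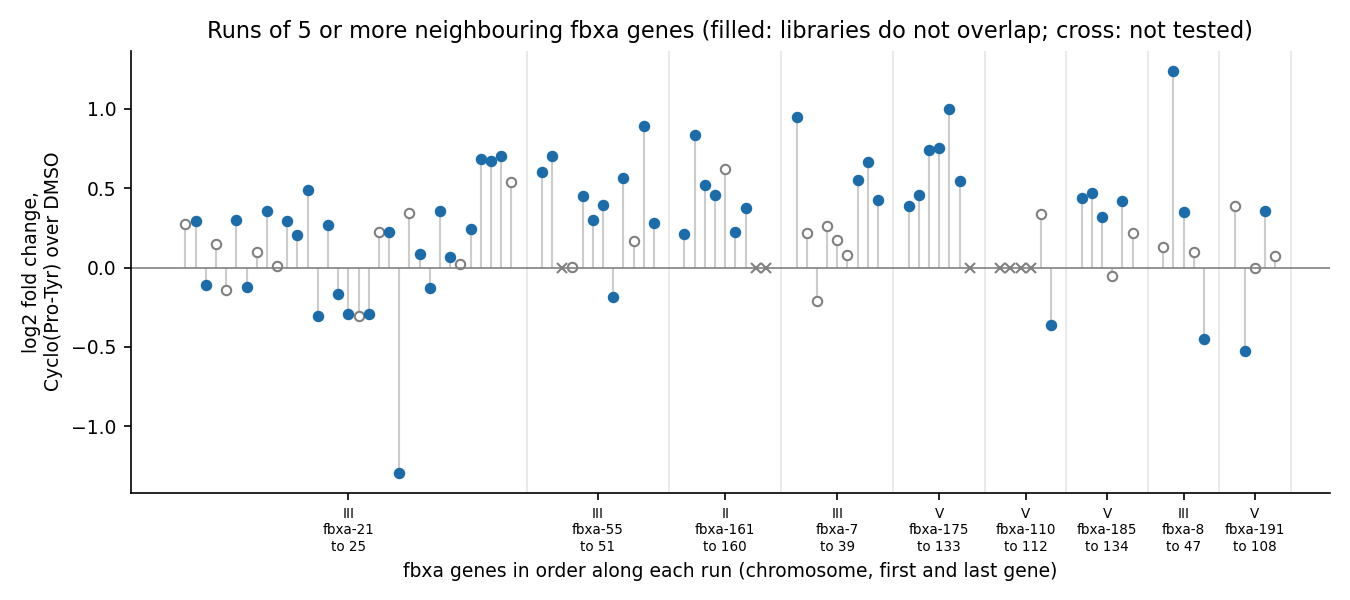
Log2 fold change, Cyclo(Pro-Tyr) over DMSO (y axis), of each *fbxa* gene in the 9 runs of 5 or more neighbours, in gene order along each run (x axis, runs labelled by chromosome, first and last gene). Filled points are genes whose libraries do not overlap between groups, and crosses are genes too low to be tested. All 6 tested genes of the run from *fbxa-175* to *fbxa-133* are filled and above 0, while the run from *fbxa-21* to *fbxa-25* has 23 points above 0 and 10 below.

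The adaptors of the CUL-6 ligase showed no called difference. The gene *fbxa-158* (CELE_C08E3.10) measured 11.1 and 14.0 CPM in Cyclo(Pro-Tyr), against 9.88 and 9.43 CPM in DMSO, or 0.38 ± 0.15 on the log2 scale (standard error; edgeR adjusted p 0.168). The gene *fbxa-75* (CELE_Y119D3A.1) measured 0.995 and 0.359 CPM in Cyclo(Pro-Tyr), against 0.486 and 0.647 CPM in DMSO. Its exposed libraries lay on both sides of the controls, and its log2 fold change was 0.34 ± 0.48 (standard error; edgeR adjusted p 0.686), turning to -0.64 without Cyclo(Pro-Tyr) replicate 1.

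The partners of those adaptors were not called either. Of the 7 genes of that ligase, both adaptors included, 5 were higher and 2 lower, with 0 called at an adjusted p below 0.05 by edgeR. At an unadjusted p under 0.05 by edgeR, 2 were higher (the adaptor *fbxa-158* and *rcs-1*) and 1 was lower (*cul-6*). Of all tested genes, 13.0% were higher and 14.3% lower at that cutoff. The scaffold gene *cul-6* measured 38.9 and 35.6 CPM in Cyclo(Pro-Tyr), against 43.4 and 49.4 CPM in DMSO (log2 fold change -0.32, edgeR adjusted p 0.133). The RING gene *rcs-1* measured 28.3 and 27.9 CPM in Cyclo(Pro-Tyr), against 22.6 and 24.0 CPM in DMSO (log2 fold change 0.27, edgeR adjusted p 0.158).

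The other large F-box families had lower medians than *fbxa*. Of 106 tested *fbxb* genes, 9 were higher and 97 lower, and the log2 fold changes had a median of -0.61. Both Cyclo(Pro-Tyr) libraries lay below both DMSO libraries for 75 of the *fbxb* genes (70.8%, against 30.8% of all tested genes) and above for 5 (4.72%, against 29.6%). Among *fbxb* genes 3 fell and 0 rose at an adjusted p below 0.05 by edgeR, namely *fbxb-95*, *fbxb-17* and *fbxb-90*. That is 2.83%, near the 2.05% of all tested genes. Of 53 tested *fbxc* genes, 21 were higher and 32 lower, with a median of -0.16. There was 1 call (1.89%, near the 2.05% of all tested genes), the decrease of *fbxc-26*. The exons of *fbxc-26* overlap F58E1.13 on the same strand.

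The direction of the *fbxb* median was the same in every alternative run, at -0.36 to -0.88, and that of the *fbxa* median likewise, at 0.09 to 0.27. The *fbxc* median turned to 0.06 when genes needed 5 CPM in at least 2 libraries, which left 20 *fbxc* genes. Levels differ between these families, and at 1 to 10 CPM, where both have many genes, 78 of 117 *fbxa* genes and 6 of 66 *fbxb* genes were higher. The difference between the families was not tested.

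The core of the SCF ligase and its regulators gave 6 calls among 37 tested genes (16.2%, against 2.05% of all tested genes), all lower. All 6 (*skr-7*, *skr-8*, *skr-9*, *skr-10*, *skr-12* and *skr-14*) are Skp1-related genes, with log2 fold changes of -1.33 to -1.05. The scaffold *cul-1* measured 63.8 and 55.2 CPM in Cyclo(Pro-Tyr), against 59.3 and 55.5 CPM in DMSO. The main Skp1 gene *skr-1* measured 380.1 and 424 CPM in Cyclo(Pro-Tyr), against 364 and 347 CPM in DMSO. Neither was called by edgeR, at adjusted p of 0.806 and 0.383.

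Of 9 F-box genes known by their phenotypes, 1 rose and 0 fell at an adjusted p below 0.05 by edgeR, where 2.05% of all tested genes were called. The gene that rose was *mfb-1*, a homologue of the muscle F-box gene atrogin of mammals. It measured 138 and 171 CPM in Cyclo(Pro-Tyr), against 90.1 and 90.3 CPM in DMSO, or 0.78 on the log2 scale (edgeR adjusted p 0.0409). The β-TrCP homologue *lin-23* measured 134 and 133 CPM in Cyclo(Pro-Tyr), against 92.2 and 109.8 CPM in DMSO (log2 fold change 0.40, edgeR adjusted p 0.0890).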

How the data were processed

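RNA from whole worms was sequenced as single-end reads from a stranded total RNA kit, per the labels' protocols. The submitters' processing notes name Bowtie2 and SAMtools. How reads were counted, on which build and annotation, and whether by strand, is not given in the sources used here. The deposited table holds raw counts per gene, not normalised by the authors. Groups and replicate numbers follow the sample titles (1 treatment label repeats the words for replicate 1). Gene order and symbols come from RefSeq WBcel235 (21890 of 21895 rows matched), exon lengths and overlaps from Ensembl release 115 of WBcel235 (21880 rows). Overlaps with piRNA genes were not looked for. No coordinates are printed, since the counts come with no named build.

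All 19439 genes above edgeR's default filter were fitted together with edgeR 4.0.16 in R 4.3.3 (TMM, quasi-likelihood test, treatment as the only term, Benjamini-Hochberg adjustment over all of them, threshold 0.05); the fit was tested on simulated data. Log2 fold changes set Cyclo(Pro-Tyr) over DMSO, and their standard errors are the fold change divided by the square root of F. A count of 0 allows up to 3 counts, or 0.0563 to 0.0768 CPM, for counting error only.

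Genes described singly are those past the threshold, the 6 higher and 6 lower with the smallest p among those of at least 1 CPM, the 5 of highest CPM, *fbxa-75* and *fbxa-158*, 18 in all. Members, lists and tests were chosen with earlier results of these data known. Alternatives were other scalings and filters, DESeq2 1.42.0, limma-voom (limma 3.58.1), a robust fit, a replicate block and leaving out each library.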

Additional observations from a re-analysis of the deposited data

How the results depend on the processing

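The count of called *fbxa* genes, 2 in the report (1 higher, 1 lower), was small enough to move under most settings, while the family's median was above 0 in all settings run. It was 9 with upper-quartile scaling (8 higher; 4.39%, against 4.33% of all tested genes), 1 with total counts (0 higher; 0.488% against 1.11%), 5 in the robust edgeR fit (4 higher; 2.44% against 2.80%), 16 by DESeq2's Wald test (13 higher, 3 lower; 7.80% against 9.12%) and 27 at a threshold of 0.1 (23 higher, 4 lower). With no filter 2 were higher. The filter of 5 CPM in 2 libraries gave 0, 0 higher and 0 lower by edgeR, where 0 of all 12337 tested genes were called. Under it, 32 of 99 *fbxa* genes had an unadjusted p under 0.05 by edgeR, and 75 of the 99 were higher. The share of all tested genes at an unadjusted p under 0.05 was not computed for the alternatives, so such counts are not read as a result about the family. Without members that overlap another gene 1 was left (0 higher), since *fbxa-27* is one of these. Leaving out single libraries gave 0 to 41 calls, 0 to 37 higher and 0 to 4 lower, with the most without Cyclo(Pro-Tyr) replicate 1 (19.7%, against 21.8% of all tested genes), 7 without Cyclo(Pro-Tyr) replicate 2 (3.32% against 4.95%) and none without either DMSO library, where 42 (without replicate 1) and 23 (without replicate 2) genes had an unadjusted p under 0.05. In such a fit the lone library is assumed to vary like the other group. The prior degrees of freedom came to 63.1 and 48.4 without Cyclo(Pro-Tyr) replicates 1 and 2, and 4.93 and 5.06 without DMSO replicates 1 and 2. Median log2 fold changes of the family without single libraries ran from 0.09 (0.0873 without Cyclo(Pro-Tyr) replicate 2) to 0.27. The cause of the other shifts was not tested.

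Nothing in the labels says that the replicate numbers mark a shared culture or day, so they were not taken as pairs. The deviations of same-numbered libraries had a correlation of -0.20 over all tested genes. With 2 libraries a group, that value cannot show whether the numbers mark pairs. With a replicate block edgeR called 0 *fbxa* genes, 0 higher and 0 lower, with 38 at an unadjusted p under 0.05, and 1.14% of all tested genes. With the crossed pairing, added after the data were seen, it called 39 (33 higher, 6 lower), or 19.0%, against 23.6% of all tested genes.

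Of 267 values of the 18 genes under the alternatives, 201 kept direction and side of the threshold, 9 lost the call, 56 gained one and 1 reversed, that of *fbxa-75*, which spanned -0.64 (Cyclo(Pro-Tyr) replicate 1 left out) to 0.83 (Cyclo(Pro-Tyr) replicate 2 left out). Of the 56 gains, 9 came with the threshold of 0.1, which can only add calls. The crossed pairing gave 13, where 23.6% of all tested genes were called, and DESeq2's Wald test gave 8, where 9.12% were. Fits without a library gave part of the others. The gains are thus not read as a result about the 18 genes. The *fbxc* median reversed to 0.0578 with the filter of 5 CPM. Leaving out members with near-identical proteins was not run, because no protein sequences were used here. With 2 libraries a group, standard errors on the log2 scale, with a median of 0.20 over the tested *fbxa* genes, limit which of the small differences can be called.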
